A study of Sus scrofa with 16 samples.

Results

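The genes described here mark T cells, natural killer (NK) cells, B cells and plasma cells in young pig myocardium after ischemia/reperfusion (IR). With them are chemokines that guide these cells and factors for their survival. The list named 52 symbols, chosen by cell type or role with earlier results of these data known. The paper lists *CD69* and *CD72* among the immune genes upregulated in the IR scar zone. Shares of members set beside those of all genes are therefore a description. A line was found for 50 of them among the 22629 genes of the tables, 49 by symbol and *KLRD1* by its Ensembl ID, and each of the 50 had a total of 15 or more estimated counts over all libraries. No line was found for *GZMH* and *CXCL13*, which are not analysed here. Of the 50, 36 had enough counts to pass the filter of the scar zone fit and 34 that of the border zone fit, and the remaining 14 and 16 are described by their counts.

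The animals were White Yorkshire-Landrace pigs, and surgery was done at an age of 30 days. In the IR group the left anterior descending artery was occluded for 1 h and then reperfused, and sham pigs were operated on without occlusion. Left ventricle was collected 4 weeks later from 4 IR pigs (females 2 and 14, males 9 and 11) and 4 sham pigs (females 4 and 5, males 12 and 13), which makes 16 libraries, 1 of each zone in each pig. The paper describes the scar zone piece of IR pigs as holding scar and neighbouring myocardium together. The sham piece of that name came from the same site and held no infarct.

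T cells recognise antigen through the T cell receptor, whose CD3 chains pass the signal to the kinases LCK and ZAP70, and the coreceptors CD4 and CD8 divide them into helper and cytotoxic cells. Cytotoxic T cells and NK cells kill with perforin and granzymes, while B cells carry the CD79 receptor chains and plasma cells secrete antibody joined by the J chain. Lymphocytes are sparse in healthy myocardium and enter it after infarction. The chemokines CCL19 and CCL21 guide the movement of cells that carry CCR7, and BAFF (*TNFSF13B*) is a survival factor of B cells. In RNA of whole tissue, fewer cells of a type and less RNA in each cell cannot be told apart.

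Estimated counts summed to between 15427663 and 49045206 per library, with a median of 21822696. Levels are given as CPM, which are counts scaled to the library size by TMM, and are compared between genes only as TPM, which is also scaled by transcript length. A floor of 3 counts was worth between 0.0693 and 0.204 CPM, for counting error only. The tissue was myocardium by its markers, since 6 cardiomyocyte genes summed to between 24269.7 and 33089.8 TPM. The scar zone libraries of IR pigs 9 and 11 stood apart, with 9220 and 9825 TPM summed over 6 fibroblast genes against 1312 to 2300 TPM in the other 6 scar zone libraries, and with 414 and 525 TPM over 10 macrophage genes against 109 to 201 TPM. The scar zone libraries of IR pigs 2 and 14 did not exceed the sham ones in these sums. Their fibroblast sums were 1687 and 1312 TPM, against 1683 to 2300 TPM in sham pigs. Their macrophage sums were 134 and 147 TPM, against 109 to 201 TPM in sham pigs. Pigs 9 and 11 were the 2 male IR pigs, so sex and the size of these sums cannot be told apart within the IR group. IR pig 14, a female, had the Y-linked *DDX3Y* at 4.47 CPM in its scar zone library, where other female libraries had 0.399 to 1.21 and male libraries 68.3 to 103, so the genes called at 2-fold below are also given without it.

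**Figure D1:**
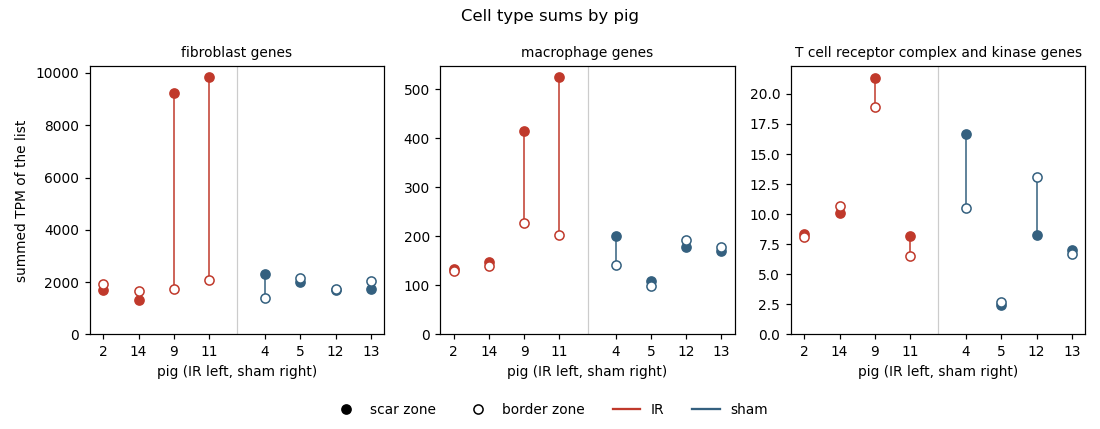
Summed TPM of 6 fibroblast genes, 10 macrophage genes and the 6 genes of the T cell receptor complex and its kinases by pig, with IR pigs on the left and sham pigs on the right, a filled point for the scar zone and an open point for the border zone. The fibroblast and macrophage sums stand out in the scar zone of IR pigs 9 and 11, at 9220 and 9825 TPM and at 414 and 525 TPM, while the T cell sum is highest in IR pig 9 and lowest in sham pig 5 in both zones.

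Lymphocyte transcripts were present at low levels in every heart, with and without infarct. As a mean over the 16 libraries, the T and NK cell genes with the highest levels were *NKG7*, a cytotoxic granule protein, at 8.54 TPM, *IL2RB*, the beta chain of the interleukin 2 receptor, at 7.07 TPM, *CD2*, an adhesion receptor of T and NK cells, at 5.37 TPM, and *CD4* at 3.56 TPM. The CD3 chains lay between 1.39 TPM (*CD3G*) and 1.79 TPM (*CD3E*), with *LCK* at 2.28 TPM, *CD8A* at 2.79 TPM and the protease *GZMB* at 3.15 TPM. Among the tissue signals, *CCL21*, a chemokine made by lymphatic vessels, was at 17.4 TPM and *CCL19* at 6.92 TPM, while their receptor *CCR7* was at 0.245 TPM. *JCHAIN*, the joining chain made by plasma cells, was at 7.74 TPM. Of 7 markers of immature thymocytes 5 had a line. *RAG1*, *PTCRA*, *CD1E* and *RAG2* had at most 7, 1, 12.2 and 18.1 counts in a library, and *DNTT* had 4 to 77 counts and a mean of 0.77 TPM.

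The B cell genes were not at a single level. *CD79A*, which encodes the alpha chain of the B cell receptor complex, was at 1.94 TPM and had between 103 and 426 counts in every library. Its partner *CD79B* was at 0.136 TPM with 0 to 14 counts, and *MS4A1*, which encodes the B cell surface protein CD20, was at 0.111 TPM with 0 to 16 counts. The B lineage factor *PAX5* had 2.05 to 12.2 estimated counts and its cofactor *POU2AF1* 0 to 12. *CD72* and *CD22*, inhibitory receptors of B cells, were at 1.33 and 0.933 TPM. The defining B cell genes *MS4A1*, *CD79B*, *PAX5* and *POU2AF1* were thus at or near the floor in libraries where *CD79A* was well above it.

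In the comparison of IR with sham pigs in the scar zone, which asks whether lymphocyte genes differed 4 weeks after injury, 3 of the 36 members tested were higher and 0 lower at a fold change of at least 2 with an unadjusted p of at most 0.05. They were *RGS1*, *TNFSF13B* and *CCL19*. Over all 14023 genes tested, 2.74% were called higher and 0.613% lower by the same rule. With the p adjusted over all genes, edgeR called 0 members and 0% of all genes, while DESeq2 called 1 member, *RGS1*, and 0.372% of all genes. The 3 genes belong to the activation, survival and homing groups, and 0 of the genes of the receptor complex, the coreceptors, the cytotoxic granule or the B cell receptor were called. Without IR pigs 9 and 11, 1 of 40 members was called higher, and it was *RGS1*, where 0.782% of all genes were.

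*RGS1* encodes a regulator of G protein signalling that limits chemokine-driven movement of lymphocytes and is also made by other leukocytes. In the scar zone it stood at 4.56, 6.87, 12.1 and 16.7 CPM in IR pigs 2, 14, 9 and 11, and at 3.68, 2.12, 2.79 and 2.73 CPM in sham pigs 4, 5, 12 and 13. All 4 IR pigs were above all 4 sham pigs, and the 2 male IR pigs were above the 2 female ones. The log2 fold change was 1.84 ± 0.39 (SE), with an unadjusted p = 0.000895 in edgeR and p = 0.0286 in the exact permutation test, two-sided, the smallest that 4 pigs against 4 allow. Adjusted over all genes these were 0.438 and 0.589. DESeq2 gave an adjusted p = 0.0028, and over the 9 ways of fitting the adjusted p ran from 0.0028 to 0.602. Leaving out each pig in turn gave log2 fold changes of 1.48 to 2.07, all still called, with 1.98 for pig 14, and leaving out pigs 9 and 11 together gave 1.01.

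The IR effect on *RGS1* differed between the zones. In the border zone IR pigs 2, 14, 9 and 11 had 3.34, 3.11, 4.97 and 4.64 CPM and sham pigs 4, 5, 12 and 13 had 3.89, 2.28, 5.73 and 3.25 CPM, so the groups overlapped there, with a log2 fold change of 0.09 ± 0.29. The IR effect in the scar zone exceeded that in the border zone by 1.75 ± 0.51 on the log2 scale, with an unadjusted p = 0.00331 in edgeR (adjusted p = 1) and p = 0.0286 in the exact permutation test of the zone differences (adjusted 0.714). Scar exceeded border in 4 of 4 IR pigs, by 0.44 to 1.83, and in 0 of 4 sham pigs. The excess was 1.62 ± 0.33 with the pig as a block (edgeR, adjusted p = 0.702), 1.77 without pig 14 and 1.25 without pigs 9 and 11.

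Over the 42 members in this test of the difference between zones, 1 was higher at 2-fold and 0 lower, where 1.32% and 0.049% of all 14278 genes were. At any fold change 2 were higher, *RGS1* and *CD79A*, and 0 lower at an unadjusted p of at most 0.05, against 1.96% and 0.259% of all genes. By non-overlap of the zone differences, 1 member was higher and 0 lower, against 2.3% and 1.7%. The estimate was positive in 25 of 42, against 52.2%. With the pig as a block, 2 members were called at 2-fold, *RGS1* and *TNFSF13B*, and 4 passed at any fold change, with *CCL19* and *CD79A*, where 1.39% and 4.24% of all genes were higher in that fit.

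*TNFSF13B*, which encodes the B cell survival factor BAFF and is made mainly by myeloid cells, was split by pig within the IR group. Its scar zone level was 1.10 and 1.16 CPM in IR pigs 2 and 14 and 4.87 and 6.38 CPM in IR pigs 9 and 11, and sham pigs 4, 5, 12 and 13 had 0.994, 0.388, 0.687 and 1.26 CPM. Both female IR pigs lay within the range of the sham pigs, and both male IR pigs lay above it. The difference was 2.03 ± 0.63 on the log2 scale, with an unadjusted p = 0.0095 in edgeR (adjusted p = 0.438) and p = 0.0857 in the exact permutation test. It was 2.30 without pig 14 and 0.43, no longer called, without pigs 9 and 11. For the border zone the difference was 0.62 ± 0.55 (edgeR, adjusted p = 0.988), with 4.09 CPM in IR pig 11 and 0.993 to 2.02 CPM in the other 3 IR pigs. The zones differed in this effect by 1.43 ± 0.9 (adjusted p = 1), and with the pig as a block by 1.23 ± 0.48 (adjusted p = 0.702), or 1.29 without pig 14. In the joint fit it was 0.60, not called, without pigs 9 and 11. *TNFRSF13C*, which encodes the BAFF receptor of B cells, was at 4.06 and 4.82 CPM in the scar zone of IR pigs 9 and 11, at 1.73 and 1.63 CPM in IR pigs 2 and 14, and at 1.60 to 4.19 CPM in sham pigs.

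*CCL19*, which draws CCR7-bearing T cells and dendritic cells, had 2.95, 3.81, 4.43 and 10.4 CPM in the scar zone of IR pigs 2, 14, 9 and 11, against 3.21, 1.60, 2.13 and 2.17 CPM in sham pigs 4, 5, 12 and 13. IR pig 11 stood far above the others, and IR pig 2 overlapped with the sham pigs. The difference was 1.24 ± 0.41 on the log2 scale, with an unadjusted p = 0.0133 in edgeR (adjusted p = 0.438) and p = 0.0571 in the exact permutation test. Without pig 11 it was 0.71, which is below 2-fold, without pig 14 it was 1.37, and without pigs 9 and 11 it was 0.56 and no longer passed. The border zone gave 0.15 ± 0.31. The difference between zones was 1.11 ± 0.53 (edgeR, adjusted p = 1) and 0.96 ± 0.42 with the pig as a block (adjusted p = 0.702), which passed an unadjusted p of 0.05 with the block and with DESeq2 but not in the joint edgeR fit without it. That zone value no longer passed with the block and without pig 14 (0.96). In the joint fit it was 1.43, called at 2-fold, without IR pig 2, 0.57 without pig 11 and 0.38 without pigs 9 and 11.

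*CCL21*, the other ligand of CCR7, did not follow the groups. It was at 18.5 and 24.5 CPM in the scar zone of IR pigs 2 and 14, at 57.4 and 72.1 CPM in IR pigs 9 and 11, and between 24.7 and 58.2 CPM in sham pigs. The 6 lymphatic endothelial genes, of which *PDPN* had the highest mean TPM, summed to 21.9 and 21.2 TPM in pigs 2 and 14, to 58.4 and 61.1 TPM in pigs 9 and 11 and to 28 to 47.8 TPM in sham pigs. Of the 6, 4 were higher in both of IR pigs 9 and 11 than in both of IR pigs 2 and 14 (*PDPN*, *LYVE1*, *MMRN1* and *FLT4*), and *PROX1* and *RELN* were not. The part of these cells in the *CCL21* values was not tested. Over all pigs the difference was 0.02 ± 0.42 on the log2 scale, a sign that changed between ways of fitting, and it was -0.99, at an unadjusted p under 0.05, without pigs 9 and 11. *CCR7*, the receptor for both chemokines, had 0.84 to 1.5 CPM in IR pigs and 0.277 to 1.3 CPM in sham pigs in the scar zone, a difference of 0.31 ± 0.44.

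For the 3 genes called in the scar zone, the highest values came from the 2 libraries with the highest fibroblast and macrophage sums, and the part of those cells in the differences was not tested. Of 10 pan-leukocyte markers, 9 had a line and summed to 281 and 178 TPM in the scar zone of IR pigs 9 and 11, to 107 and 106 TPM in IR pigs 2 and 14, and to between 60.2 and 159 TPM in sham pigs. Neutrophil markers, 5 of 6 with a line, summed to 11.8 TPM in IR pig 11 and to 0.739 to 3.67 TPM in the other 7 libraries of that zone. All 10 macrophage genes had positive log2 fold changes, with a median of 0.6, and 1 of them was called higher.

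**Figure D2:**
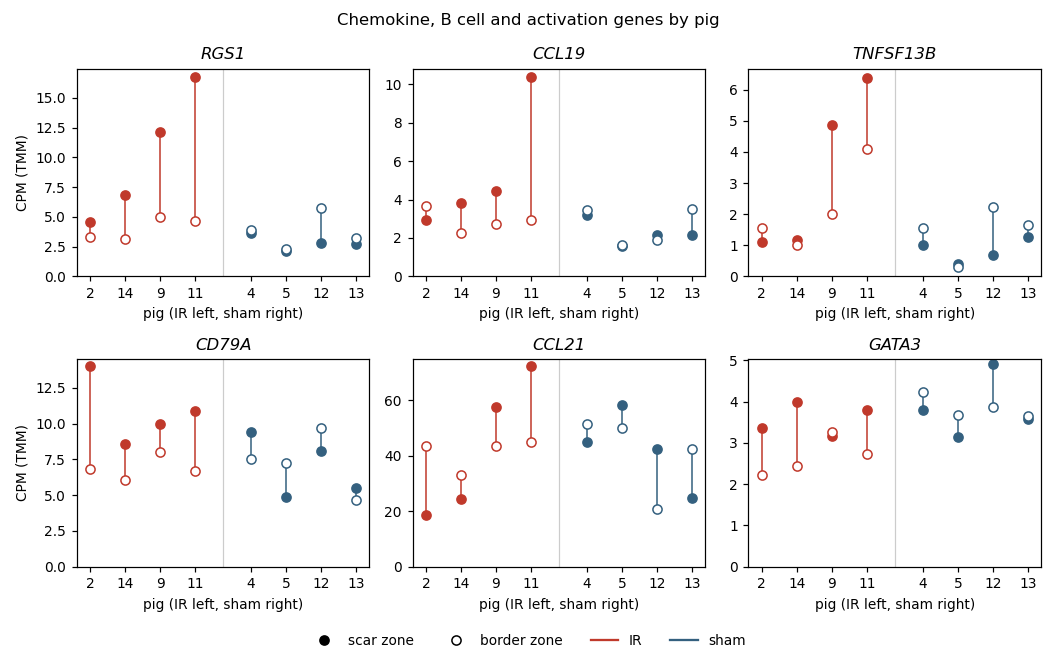
CPM of 6 genes by pig, with IR pigs on the left and sham pigs on the right, a filled point for the scar zone and an open point for the border zone of the same pig, joined by a line. *RGS1* in the scar zone of the 4 IR pigs (4.56 to 16.7) is above the sham scar zone (2.12 to 3.68), *TNFSF13B* is above it only in IR pigs 9 and 11, *CCL19* is highest in IR pig 11 (10.4), and *GATA3* in the border zone is lower in all 4 IR pigs (2.22 to 3.27) than in the sham pigs (3.66 to 4.23).

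*CD79A* was the fourth member with an unadjusted p of at most 0.05 here, at less than 2-fold. Its values were 14.05, 8.55, 9.94 and 10.9 CPM in IR pigs 2, 14, 9 and 11 and 9.39, 4.90, 8.11 and 5.47 CPM in sham pigs 4, 5, 12 and 13. The groups overlapped through IR pig 14 and sham pig 4, and the highest value was in IR pig 2, whose fibroblast and macrophage sums were within the sham range. The difference was 0.63 ± 0.25 on the log2 scale, with an unadjusted p = 0.0295 in edgeR (adjusted p = 0.438) and p = 0.0571 in the exact permutation test. It ran from 0.48 to 0.8 with each pig left out, no longer passed without IR pig 2 (0.48), sham pig 5 (0.49) or sham pig 13 (0.53), and was 0.72 without pig 14 and 0.70, not passing, without pigs 9 and 11. At any fold change, 4 members were higher and 0 lower in this zone, where 6.57% and 4.64% of all genes were.

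The scar zone of IR pigs also exceeded their own border zone in *CD79A*. The border zone values were 6.82, 6.03, 7.98 and 6.66 CPM in IR pigs 2, 14, 9 and 11, below the scar zone in 4 of 4 IR pigs, while scar was above border in 2 of 4 sham pigs. Within IR pigs the excess was 0.66 ± 0.24 (edgeR, adjusted p = 0.544), and 0.64 ± 0.16 with the pig as a block (adjusted p = 0.153). Against sham pigs the difference between zones was 0.72 ± 0.34, with an unadjusted p = 0.0497 in edgeR (adjusted p = 1) and p = 0.0571 in the exact permutation test. It ran from 0.56 to 0.88 with each pig left out and no longer passed in 5 of those 8 fits, those without IR pigs 2, 11 and 14 and sham pigs 5 and 12, nor in 6 of the 8 other ways of fitting all pigs. *MS4A1* had 4 to 7 counts in the IR scar zone and 0 to 7 in the sham scar zone, and *CD79B* had 5 to 14 and 2 to 12. The edgeR fit that kept every gene gave 0.45 ± 0.74 and 0.34 ± 0.58 for the scar zone (adjusted p = 0.805 and adjusted p = 0.811).

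*CD22*, *CD72* and *JCHAIN* had their highest scar zone values in IR pig 9 or 11. *CD22* was at 5.87 and 5.81 CPM in the scar zone of IR pigs 9 and 11, at 1.39 and 1.09 CPM in IR pigs 2 and 14, and at 1.21 to 3.48 CPM in sham pigs. *CD72* was at 5.36 CPM in IR pig 9, at 0.545 to 1.44 CPM in the other IR pigs and at 0.129 to 1.27 CPM in sham pigs, which gave 1.35 ± 0.75 on the log2 scale (edgeR, adjusted p = 0.496) and 0.32 without pig 9. *JCHAIN* was at 2.45, 5.58, 4.36 and 16.2 CPM in IR pigs 2, 14, 9 and 11 and at 3.20 to 5.16 CPM in sham pigs, which gave 0.85 ± 0.5 (edgeR, adjusted p = 0.511) and 0.048 without pig 11. IR pig 11 also had the highest *JCHAIN* value of the border zone. *TNFRSF17*, the plasma cell receptor BCMA, did not share that pattern, with 3.29 and 3.24 CPM in the 2 libraries of IR pig 11 and its highest value, 6.32 CPM, in the scar zone of sham pig 12.

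The T cell receptor genes were not called in either zone. In the scar zone *CD3E* was at 3.87, 6.40, 6.37 and 2.49 CPM in IR pigs 2, 14, 9 and 11 and at 6.96, 0.647, 3.62 and 2.89 CPM in sham pigs 4, 5, 12 and 13. The groups overlapped throughout, and both the highest and the lowest library were sham ones. The difference was 0.43 ± 0.58 on the log2 scale (edgeR, adjusted p = 0.766). *CD3D* gave 0.42 ± 0.36, *LCK* 0.34 ± 0.37 and *CD8A* -0.02 ± 0.46, whose sign was positive in TPM. Of the 6 genes of the receptor complex and its kinases, 5 had positive log2 fold changes, with values from -0.13 to 0.45 and a median of 0.38. *CD3E* and *LCK* were lower in IR pig 11, whose scar zone had the highest fibroblast and macrophage sums, than in the other 3 IR pigs, with *LCK* at 4.02 CPM there and at 5.82 to 7.33 CPM in the others.

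*CD2* was highest in both zones of the same pig. IR pig 11 had 20.4 CPM of *CD2* in its scar and 19.4 CPM in its border library, against 4.45 to 10.8 CPM in the scar zone of the other IR pigs and 1.04 to 10.1 CPM in sham pigs. Each CD3 chain of pig 11 lay within the range of the sham pigs in both zones. The IR difference in *CD2* was 0.9 ± 0.62 in the scar zone (edgeR, adjusted p = 0.557), 0.36 without pig 11, and 0.85 ± 0.53 in the border zone (adjusted p = 0.988).

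*CD4*, the coreceptor of helper T cells, which macrophages can also carry, had a small and even difference. IR pigs 2, 14, 9 and 11 had 8.61, 8.78, 9.84 and 8.05 CPM in the scar zone and sham pigs 4, 5, 12 and 13 had 7.14, 7.98, 7.92 and 7.15 CPM. The groups did not overlap, although the nearest values, 8.05 and 7.98 CPM, were close. It was 0.22 ± 0.14 on the log2 scale (edgeR, adjusted p = 0.53), with p = 0.0286 in the exact permutation test (adjusted 0.589). In the border zone the range was 5.66 to 11.5 CPM in IR pigs and 6.98 to 8.86 CPM in sham pigs, and the groups overlapped. Of the 36 members tested in the scar zone, 2, *RGS1* and *CD4*, were higher in IR pigs without overlap and 0 were lower, where 2.2% of all genes were higher and 2.65% lower without overlap.

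The cytotoxic and NK cell genes were not called in either zone. *NKG7* was at 6.64, 5.11, 10.1 and 10.8 CPM in the scar zone of IR pigs 2, 14, 9 and 11 and at 8.13, 2.89, 5.86 and 4.66 CPM in sham pigs 4, 5, 12 and 13, which gave 0.6 ± 0.34 on the log2 scale (edgeR, adjusted p = 0.499). The granule protease *GZMA* gave 0.24 ± 0.53 for the scar zone and 0.71 ± 0.5 for the border zone, and pore-forming *PRF1* gave 0.06 ± 0.35 and 0.59 ± 0.39. The highest border zone values of *PRF1*, 7.17 CPM, and *GZMA*, 6.06 CPM, both came from IR pig 9. Among the NK cell receptors, *KLRK1* had 15.5 to 163 counts per library, *NCR1* 4 to 31, *KLRB1* 1.17 to 24.7 and *KLRD1* 0 to 12. *KLRB1* was at 0.123 to 0.766 CPM in the IR scar zone and 0.174 to 0.514 CPM in the sham scar zone.

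Several genes of activated, regulatory and helper subsets had few counts. *CD69*, an early activation marker, had 3 to 31 counts per library in the IR scar zone, 4 to 8 in the sham scar zone, 1 to 25 in the IR border zone and 3 to 11 in the sham border zone. In CPM that was 0.173, 0.885, 0.723 and 0.539 in the scar zone of IR pigs 2, 14, 9 and 11, with 0.145 to 0.361 in sham pigs. It was removed from both fits of IR against sham with all pigs by the count filter. An edgeR fit that kept every gene gave 1.25 ± 0.56 on the log2 scale for the scar zone (adjusted p = 0.467) and 0.37 ± 0.71 for the border zone (adjusted p = 0.972). *FOXP3*, the factor of regulatory T cells, had 0 to 12.5 counts and was at 0 in 1 library of each of the 4 groups. The checkpoint receptor *CTLA4* had 0 to 21 counts, the costimulator *ICOS* 2 to 28, *CD40LG*, which helps B cells, 0 to 37, and *CD27* 0 to 19.3. *CXCR5*, the chemokine receptor of B cell follicles, had 0 to 15.8 counts, and the T-box factor *EOMES* 1 to 31. In the edgeR fit that kept every gene, these 7 genes (*FOXP3* to *EOMES*) gave scar zone values from -0.59 ± 1.08 for *CD27* to 1.63 ± 0.8 for *CTLA4* (adjusted p = 0.485) on the log2 scale, and 0 of them had an unadjusted p of at most 0.05 in either zone. *IL7R*, the survival receptor of resting T cells, had 5 to 38 counts in the scar zone of IR pigs and 3 to 27 in sham pigs, which gave 0.18 ± 0.58 on the log2 scale.

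In the border zone 0 of the 34 members tested were called higher or lower at 2-fold, by edgeR, DESeq2 or limma, where 0.517% of all 13728 genes were higher and 0.277% lower in edgeR. At any fold change, 0 members were higher and 1 lower at an unadjusted p of at most 0.05, where 2.09% and 1.69% of all genes were. The lower gene was *GATA3*, the factor of type 2 helper T cells, which endothelium also expresses. It was at 2.22, 2.43, 3.27 and 2.74 CPM in IR pigs 2, 14, 9 and 11 and at 4.23, 3.69, 3.88 and 3.66 CPM in sham pigs 4, 5, 12 and 13. The groups did not overlap, which held for 0 members in the higher direction, where 0.801% of all genes were higher and 1.25% lower without overlap. The difference was -0.53 ± 0.2 on the log2 scale, with an unadjusted p = 0.0271 in edgeR (adjusted p = 0.988) and p = 0.0286 in the exact permutation test (adjusted 0.995). It ran from -0.63 to -0.45 with each pig left out and no longer passed without IR pig 2, IR pig 14, sham pig 4 or sham pig 12, nor with limma on TPM, where the groups overlapped. For the scar zone it was -0.12 ± 0.21, and the difference between zones had an adjusted p = 1 in edgeR.

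**Figure D3:**
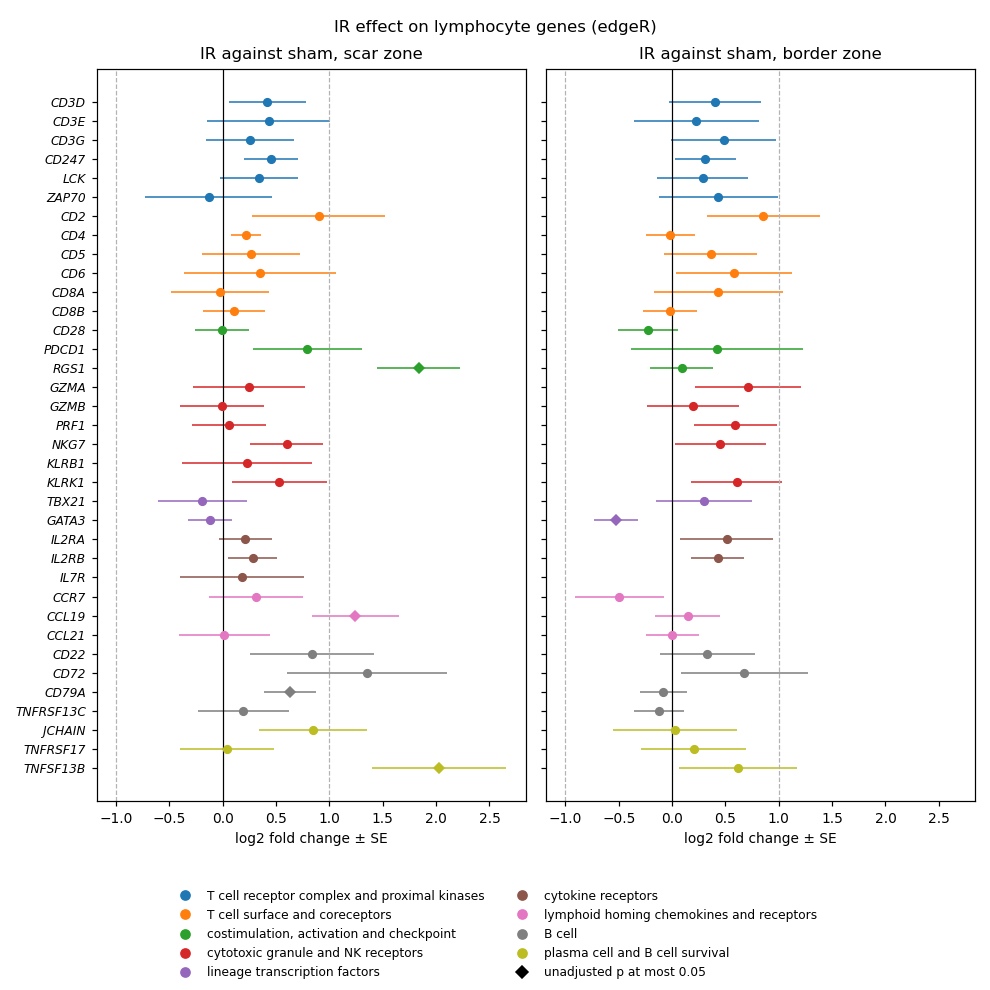
Log2 fold change of IR against sham pigs with its standard error (edgeR) for the members tested in each zone, coloured by role, with diamonds for an unadjusted p of at most 0.05 and dashed lines at 2-fold. In the scar zone 4 members carry a diamond (*RGS1*, *CCL19*, *CD79A*, *TNFSF13B*), and in the border zone only *GATA3* does, on the lower side.

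By sign alone, 30 of 36 log2 fold changes were positive in the scar zone, where 53.9% of all genes were positive, and 27 of 34 in the border zone, where 50% were. The medians were 0.27 and 0.32, against 0.03 and 2.7e-05 over all genes tested. These medians rested on single pigs. Without sham pig 5 they were 0.1 in both zones, with 24 of 42 and 24 of 36 members positive. Without IR pig 9 the border zone median was -0.02, with 16 of 34 positive, and without sham pig 4 the medians were 0.52 and 0.51.

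Sham pig 5 had the lowest level of the 8 pigs for most T cell, cytotoxic and NK cell genes. It was the lowest in both zones for 23 of the 34 members tested in both (67.6%), where it was lowest for 867 of 13682 genes (6.34%). They included *RGS1*, *CCL19* and *TNFSF13B*, the genes called in the scar zone. Also among them were all 6 genes of the receptor complex and its kinases and all 5 cytotoxic and NK cell genes tested. So were *CD2*, *CD5*, *CD6*, *CD8A* and *CD8B*, but *CD4* was not. Of the 4 B cell genes tested in both zones pig 5 was the lowest for 3 in the scar zone, where it was lowest for 14.7% of all genes, and for 0 in the border zone. For the chemokine *CCL21* and its receptor *CCR7* it was among the 2 highest pigs in each zone. In this pig *CD3E* was at 0.647 and 0.768 CPM in scar and border zone, *CD8A* at 1.12 and 1.23 CPM, and *CD6* had 1 count in the scar zone library. Other leukocyte genes were low as well, since *PTPRC*, which encodes the pan-leukocyte protein CD45, was at 10.7 and 12.6 CPM there and at 22.6 to 60.4 CPM in the other 14 libraries. Pig 5 was lowest in both zones for 8 of 9 pan-leukocyte and 6 of 10 macrophage genes, and for 0 of the fibroblast, cardiomyocyte, and lymphatic and blood endothelial genes.

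IR pig 9 stood at the other end in the border zone. It was the highest of the 8 pigs there for 19 of the 34 members, where it was highest for 13.8% of all genes, and in both zones for 8 (23.5%, against 4.74% of all genes). *CD8A* was at 15.2 CPM in its border zone and 5.41 CPM in its scar zone, the largest difference between the zones of a pig for that gene, at 2.79-fold. *TBX21*, the T-box factor of cytotoxic and type 1 helper cells, was at 13.7 and 5.79 CPM, and *PRF1* at 7.17 and 2.97 CPM. That border zone library also had the highest sum of red blood cell genes, of which 4 of 6 had a line, at 906 TPM against 164 to 487 TPM in the other 15 libraries, and the part of residual blood in its levels was not tested.

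Levels differed more between pigs than between the zones of a pig. For 29 of the 34 members (85.3%) the SD of the pig means exceeded the median difference between the zones of a pig, where this held for 72.7% of all genes tested in both zones. The median SD over these members was 0.66 on the log2 scale and the median zone difference 0.29. The highest and lowest libraries differed 13.2-fold in *CD3E*, 19.7-fold in *CD2*, 12.8-fold in *GZMA* and 13.6-fold in *CD8A*. The range was narrower in *CD4* (2.03-fold), *CD28* (2.11-fold), *GATA3* (2.21-fold), *CD8B* (2.23-fold) and *IL2RB* (2.98-fold). The 5 members in which the zones differed by more than the pigs were *RGS1*, *CD79A*, *CCL21*, *GATA3* and *TNFRSF13C*.

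**Figure D4:**
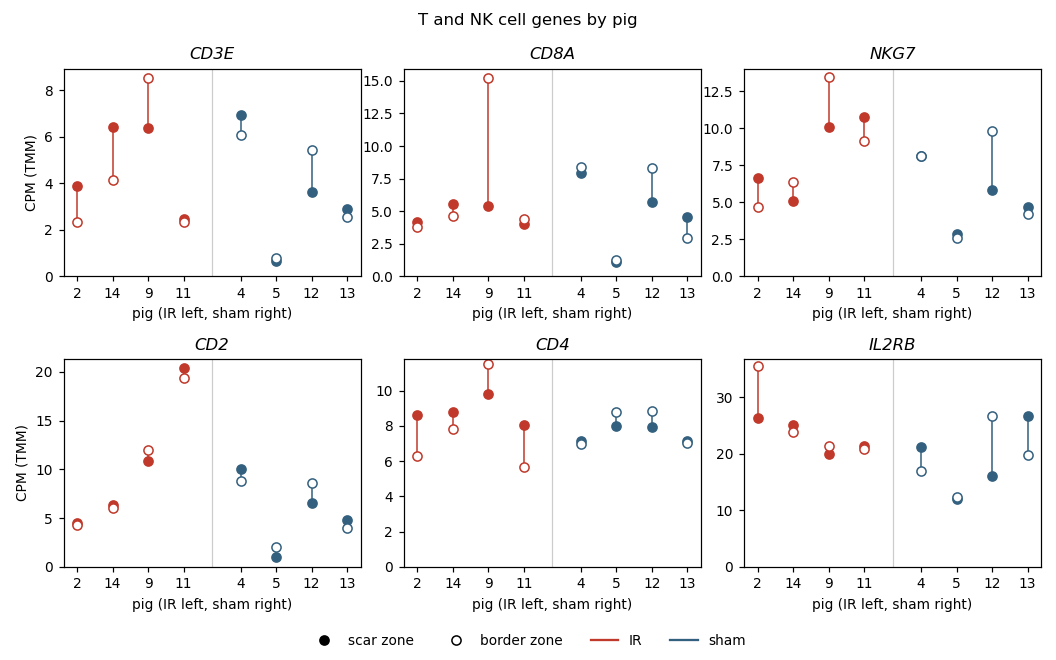
CPM of 6 T and NK cell genes by pig, with IR pigs on the left and sham pigs on the right, a filled point for the scar zone and an open point for the border zone of the same pig. Both zones of sham pig 5 are lowest for *CD3E*, *CD8A*, *NKG7*, *CD2* and *IL2RB*, both zones of IR pig 11 are highest for *CD2* (20.4 and 19.4), the border zone of IR pig 9 is highest for *CD8A* (15.2), and *CD4* lies in a narrow range.

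The summed T cell level followed the level of leukocyte RNA. The 6 receptor complex and kinase genes summed to between 2.47 and 21.3 TPM over the 16 libraries, while the ratio of this sum to *PTPRC* in TPM stayed between 0.635 and 1.22. TPM and counts did not always move together. *CD3D* in sham pig 4 was at 4.11 TPM in scar and 1.23 TPM in border, with 61.8 and 56.5 counts. In IR pig 9 the sum was 21.3 TPM in scar and 18.9 TPM in border. Scar minus border in log2 CPM was -0.19 for *CD3D*, -0.42 for *CD3E* and -0.57 for *LCK* in that pig. In sham pig 5 the ratio was 0.789 for scar and 0.671 for border, and the lowest ratio was that of the scar zone of IR pig 11. The 8 cytotoxic and NK cell genes summed to between 5.06 and 35.9 TPM, with a ratio of 1.26 to 2.07. Both parts of each ratio come from the same library, and the ratios are given as a description.

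Within IR pigs, scar against border zone gave 1 member called higher, *RGS1*, and 0 lower among the 42 tested in the joint fit, where 2.21% of all genes were higher and 0.112% lower. *RGS1* was higher in the scar zone by 1.23 ± 0.23 on the log2 scale with the pig as a block (edgeR, adjusted p = 0.153). In the joint fit, which has no pig term, it was higher by 1.33 ± 0.36 (edgeR, adjusted p = 0.497), and by 1.35 without pig 14, still called. Without pigs 9 and 11 it was 0.83 and no longer called, and that fit called 1 of 43 members higher, *CD69* at 2.25, where 0.52% of all genes were. Of its 2 IR pigs, pig 14 had 13 counts of *CD69* in scar and 1 in border tissue and pig 2 had 3 in each, and without pig 14 the value over the other 3 IR pigs was 0.16. At any fold change 4 members were higher at an unadjusted p of at most 0.05 and 0 lower in the joint fit, where 5.51% and 1.39% of all genes were. The other 3 were *CCL19* (0.9 ± 0.37, adjusted p = 0.63, and 0.78 ± 0.29, adjusted p = 0.229, with the pig as a block), *CD79A* and *GATA3* (0.41 ± 0.19, adjusted p = 0.699). *CCL19* no longer passed without any one of IR pigs 9, 11 and 14 and was 0.37 without pig 11, *CD79A* no longer passed without IR pig 2, and *GATA3* no longer passed in 5 of the 8 fits with a pig left out, with DESeq2 or with limma. With the pig as a block 1 member was called lower, the costimulator *CD27*, by -1.73, where 0.189% of all genes were, with 0 to 13.9 counts per scar zone library and 5.57 to 19.3 per border zone library. It was -1.51 and no longer called with the block and without pig 14. The estimate of the joint fit was positive in 24 of 42 members, against 51.6% of all genes.

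Between the zones of sham pigs 0 members were called at 2-fold or at any fold change by edgeR, DESeq2 or limma, where in edgeR 0.042% of all genes were higher and 0.063% lower at 2-fold, and 0.147% and 0.273% at any fold change with an unadjusted p of at most 0.05. The estimate was positive in 14 of 42 members, against 47.8% of all genes.

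**Figure D5:**
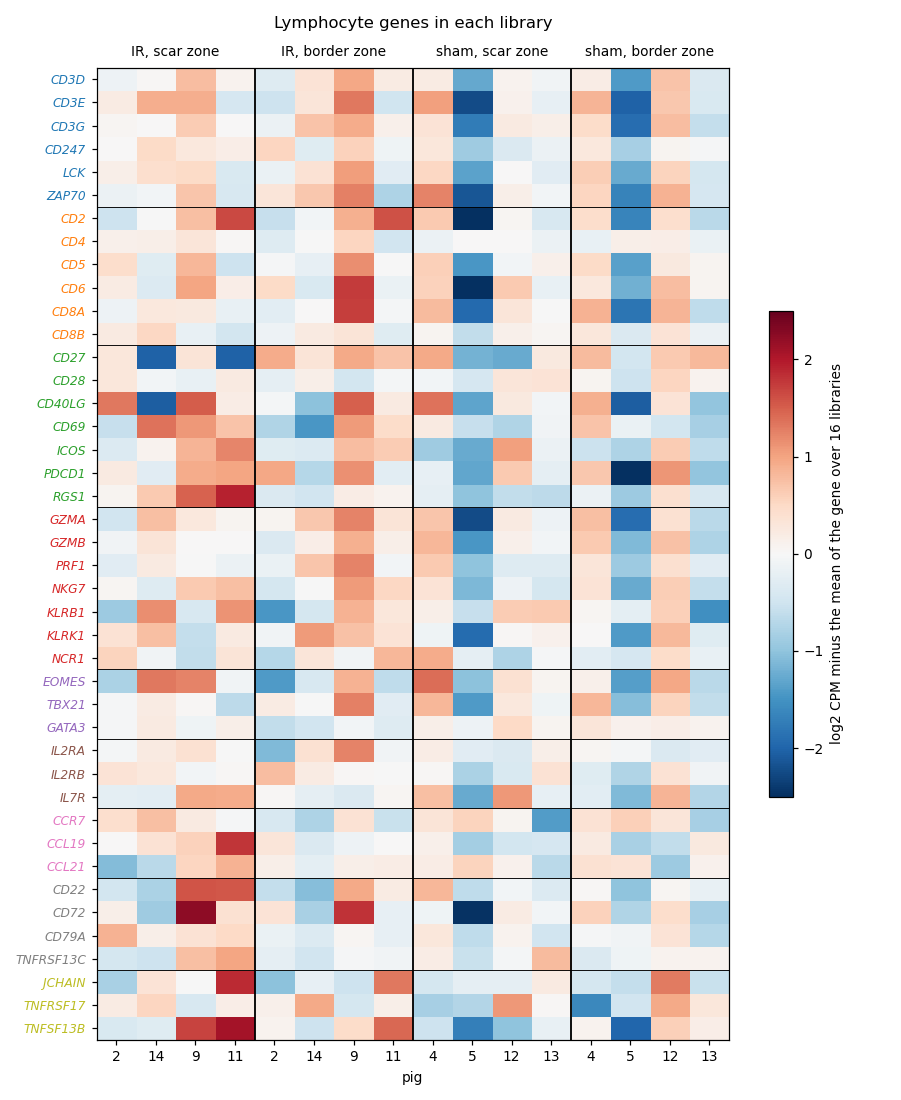
Log2 CPM of the 42 members tested in the joint fit, relative to the mean of each gene over the 16 libraries, with libraries as columns by group and pig, and genes grouped and coloured by role. The 2 columns of sham pig 5 are blue through most of the T cell and cytotoxic genes, the border zone column of IR pig 9 is red through most of them, and *RGS1* and *TNFSF13B* are red in the scar zone of IR pigs 9 and 11.

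Further genes of these pathways were taken from lists of T and NK cell genes and of B and plasma cell genes. Of 51 other T and NK cell genes, 47 had a line and 38 were tested in each zone, of which 2 were called higher and 0 lower for scar, and 0 either way for border tissue, where 2.74% and 0.517% of all genes were called higher. They were the chemokine receptor *CXCR3* (2.01 ± 0.73 on the log2 scale) and the checkpoint receptor *HAVCR2*, or TIM-3, which macrophages also carry (1.19 ± 0.42), both with an adjusted p = 0.438 in edgeR. *CXCR3* was highest in the scar zone of IR pig 14, at 13.9 CPM, and lowest in that of sham pig 5, at 0.173 CPM. Without pig 14 it was 1.39 and no longer called, while *HAVCR2* was 1.38 and still called. Of 30 other B and plasma cell genes, 27 had a line and 22 had enough counts for the scar zone test. Of these, 2 were called higher in edgeR, *CD180* (1.62 ± 0.67, adjusted p = 0.438) and *FCRL1* (1.04 ± 0.46, adjusted p = 0.442). Both encode surface receptors, and the part of B cells or of other leukocytes in their values was not tested. *CD180* was at 6.06 and 8.68 CPM in IR pigs 9 and 11 against 1.62 and 1.29 CPM in IR pigs 2 and 14, and *FCRL1* was also highest in pigs 9 and 11. Both were still called without pig 14, at 1.91 and 1.21. For the border zone 0 of 20 were called, and without pig 14 *CD180* was, at 1.31.

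The T cell factors *TCF7* and *LEF1*, partners of Wnt signalling that other cells also express, were the 2 genes of the T and NK list called between the zones of IR pigs, 2 of 39 tested where 2.21% of all genes were. *TCF7* was at 1.91 to 1.95 CPM in the scar zone of all 4 IR pigs and at 0.416 to 1.52 CPM in their border zone, a scar excess of 1.16 ± 0.34 on the log2 scale (edgeR, adjusted p = 0.497). *LEF1* had 9 to 86 counts in the IR scar zone and 2 to 16 in the IR border zone, an excess of 1.79 ± 0.59 (edgeR, adjusted p = 0.497). Their IR effects differed between zones by 1.15 ± 0.47 and 1.8 ± 0.83, both with an adjusted p = 1 in edgeR, and the exact permutation test of the zone differences gave p = 0.0571 and p = 0.0286. They were the 2 genes of 39 called in that test of the zones, where 1.32% of all genes were. Without pig 14 the scar excess was 1.52 for *TCF7* and 1.74 for *LEF1*, both still called, and the difference between zones was 1.5, still called, and 1.75, no longer called.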

How the data were processed

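RNA was measured in the scar and border zone of 4 IR and 4 sham pigs, grouped by the sample labels. The authors made stranded libraries of polyadenylated RNA, trimmed reads with Trimmomatic 0.33, aligned them with HISAT2 2.0.5 and quantified an index of Ensembl pig cDNA with kallisto 0.43.1 (versions from the submitters' processing notes), and the genome build is not given in the sources used here. They deposited estimated counts, which divide reads shared by similar transcripts, and TPM.

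Here estimated counts were rounded and tested in R 4.3.3 with edgeR 4.0.16 (TMM, filterByExpr with a minimum count of 10 and total of 15, quasi-likelihood test, Benjamini-Hochberg adjustment over all genes tested). Alternatives were DESeq2 1.42.0, limma 3.58.1 (trend; log2(TPM + 1) or log2(TPM + 0.1)), upper-quartile scaling, no filter, sex as a covariate, 1 factor of unwanted variation (5000 control genes), a single fit of 16 samples, the pig as a block and leaving out each pig in turn. Leaving out IR pigs 9 and 11 together, and IR pig 14 with the pig as a block, were added after seeing the data. A call needs a fold change of at least 2 and p of at most 0.05. Exact permutation tests (two-sided, 62 on named genes, adjusted over all genes tested) used log2 CPM with a prior count of 2. The fits were tested on simulated data.

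The zones of a pig share an animal. Their deviations from the group means correlated with 0.354 to 0.692 over 14286 genes, above the correlation with any other pig of the group, so the pig number pairs the samples. Of 7534 lines with an Ensembl ID, 915 could be named. The study's RUVSeq settings are not given, so no such factor is in the reported fits.

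Named genes were 24 members fixed by role (of which *CXCL13* had no line), other members called at an unadjusted p (0), members without overlap between groups in either zone (*GATA3*), and *PTPRC*. Values of other genes (such as *CD22*, *TBX21*, *TNFRSF13C*, *TNFRSF17*, *CD27*, *CXCR3*, *HAVCR2*, *CD180*, *FCRL1*, *TCF7* and *LEF1*) are given by choice after they were seen. The members and lists were chosen with earlier results of these data known.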

Additional observations from a re-analysis of the deposited data

Results flagged for a closer look

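*RGS1* differed between zones in its IR effect, by 1.75 ± 0.51 on the log2 scale (edgeR, adjusted p = 1), with scar above border in 4 of 4 IR pigs and below it in 4 of 4 sham pigs. *CD79A* differed by 0.72 ± 0.34 (edgeR, adjusted p = 1), with scar above border in 4 of 4 IR pigs and 2 of 4 sham pigs. Both passed only at an unadjusted p of 0.05.

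In groups of 4 libraries, 3 single values lay far from the other 3 of their group. *CD8A* was at 15.2 CPM in the border zone of IR pig 9, where the other 3 IR pigs had 3.77 to 4.62 CPM. *CCL21* was at 33.1 CPM in the border zone of IR pig 14, where the other 3 had 43.4 to 44.9 CPM. *JCHAIN* was at 10.9 CPM in the border zone of sham pig 12, where the other 3 sham pigs had 2.88 to 3.22 CPM. Chance alone marks about 1 group in 20 in this way, and 100 groups of 4 libraries (25 genes in 4 groups) were screened.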

How the results depend on the processing

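The count filter removed genes that did not reach about 10 counts, scaled to library size, in as many libraries as the smallest group held. The joint fits of 16 samples kept *CD69* and *CD27*, which were low in many libraries. Each unadjusted p weighed a difference against the spread of these few animals, and edgeR, DESeq2 and limma drew that spread partly from other genes. The joint fits without the block took the 2 zones of a pig as separate libraries. In the scar zone, members at the adjusted p numbered 1 with DESeq2 and 0 with the other ways of fitting. Members higher numbered 2 to 5 with each pig left out, 2 without IR pig 11 and 5 without IR pig 2, when *JCHAIN* joined and *CD69* passed the count filter, which it did through the IR libraries alone, and 1 without IR pigs 9 and 11. In the border zone members higher numbered 0 to 1 with each pig left out (*KLRK1* without sham pig 12), and 0 members did not overlap in TPM. In the test of the difference between zones, members higher numbered 2 with DESeq2 (*RGS1*, *CCL19*), 2 with the pig as replicate block (*RGS1*, *TNFSF13B*), 2 with that block and IR pig 14 left out and 1 to 2 with each pig left out. Between the zones of IR pigs, members higher numbered 0 with limma on log2(TPM + 1) and 1 to 2 with each pig left out, and members lower numbered 1 with the pig as replicate block (*CD27*) and 0 to 1 with each pig left out. The block changed no other call of a number of members. The TPM fits moved the median of all genes by 0.11 to 0.14 in the scar zone and zone tests. The cause of these changes was not tested. The share of all genes called is not given here for the fits with each pig left out or for the DESeq2 zone test. Whether these numbers of members moved more than all genes did is therefore not shown.

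Signs changed only in values that passed no test with all pigs. In the scar zone *CCL21* became -0.0065 with DESeq2, -0.0040 without a filter, -0.15 with sex, -0.31 with 1 factor of unwanted variation and -0.99 without IR pigs 9 and 11. *CD8A* became 0.25 and 0.46 with limma on TPM (pseudocounts 1 and 0.1), *GATA3* 0.042 and 0.076, and *IL7R* -0.059 with 1 factor. Without IR pigs 9 and 11, *CD2* was -0.069, *CD8A* 0.0012, *JCHAIN* -9.8e-05 and *IL7R* -0.70 in the scar zone, and *TNFSF13B* was -0.18 between the zones of IR pigs. In the border zone upper-quartile scaling gave -0.017 for *CCL21* and *JCHAIN*, limma on TPM gave 0.031 and 0.028 for *CD4* and -0.049 and -0.068 for *JCHAIN*, sex gave -0.000914 and 1 factor -0.039 for *JCHAIN*. With each pig left out, scar zone values ran from -0.35 to 0.32 for *CD8A*, -0.15 to 0.46 for *PRF1*, -0.099 to 0.60 for *GZMA*, -0.20 to 0.51 for *KLRB1*, -0.34 to 0.26 for *CCL21*, -0.15 to 0.59 for *IL7R* and -0.21 to 0.0079 for *GATA3*. Border zone values ran from -0.34 to 0.57 for *CD3E*, -0.26 to 0.12 for *CD4*, -0.28 to 0.76 for *CD8A*, -0.057 to 0.54 for *LCK*, -0.086 to 0.36 for *RGS1*, -0.023 to 0.32 for *CCL19*, -0.22 to 0.13 for *CCL21*, -0.25 to 0.085 for *CD79A*, -0.15 to 0.95 for *CD72* and -0.74 to 0.74 for *JCHAIN*.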
